A study of Mus musculus with 2 samples.

Results

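The genes described here build and export chylomicrons, the lipoproteins that carry absorbed fat out of the small intestine. The set was defined by name as 10 genes, with earlier results of these data known. All 10 were found in a table of 19294 genes. They are the apolipoproteins Apob, Apoa4, Apoa1 and Apoc3, the transfer protein gene Mttp, the fatty acid binding protein genes Fabp1 and Fabp2, and the acyltransferase genes Mogat2, Dgat1 and Dgat2. Their transcripts were counted by mRNA-seq in mouse intestinal organoids (mIOs). The mice were Lgr5-EGFP-IRES-creERT2 animals, and the crypts were cultured in EGF, Noggin and R-spondin. In these mice EGFP is expressed from the Lgr5 locus, and the allele is carried by both groups. The study's methods name the jejunum as the source of the crypts. One group was an untreated control and the other was exposed for 4 days to dextran sulfate sodium (DSS), a polymer used to injure gut epithelium, and both libraries are labelled day 4. Each group was 1 library, and the number of animals, their age and the DSS concentration of the sequenced culture are not given in the sources used here.

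In the small intestine, enterocytes take up fatty acids and monoacylglycerol from digested fat. Fatty acid binding proteins hold the fatty acids in the cytosol, and acyltransferases at the endoplasmic reticulum join them to monoacylglycerol and then to diacylglycerol to form triglyceride. The microsomal triglyceride transfer protein loads this triglyceride onto apolipoprotein B as it is made, smaller apolipoproteins join the particle, and the chylomicron is secreted toward the lymph.

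Totals were 65493032 counts without DSS and 59746968 with DSS. TMM factors, which correct library size for differences in composition, were applied to the counts, and levels are given as scaled CPM, counts per 1e+06 counts of the library. The ratio of the scaled counts, DSS over control, is given on the log2 scale with an exact Clopper-Pearson 95% interval. With 1 library per condition there was no replicate check and no test was possible, so each interval covers counting error only and no difference below can be separated from variation between cultures. The epithelial gene Epcam was at 941 CPM without DSS and 960 CPM with DSS. Its log2 ratio was 0.03, and -0.23 when scaled by total counts. Epcam belongs to a list of 6 epithelial genes that did not move alike. Krt20 was at 3.99 (70.4 CPM without DSS and 1121 CPM with DSS) and Krt8 at 0.84. Krt18 was at 0.04, Cldn7 at -0.02 and Cdh1 at -0.03. The labels of both libraries name intestinal stem cells as the cell type, and the stem cell marker Lgr5 was at 263 CPM without DSS and 19.2 CPM with DSS.

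Every one of the 10 genes was higher in the DSS library, by 3.44-fold (Fabp1) to 38.6-fold (Apoa1). The median log2 ratio was 2.57, against -0.06 over all 17235 genes that reached 10 counts in the control, the DSS library or both. All 10 genes had a log2 ratio above 0 and also of 1 or more, where 48.0% and 19.3% of all genes did, and 7 had a log2 ratio of 2 or more, where 7.87% of all genes did and 6.54% were at -2 or less. The number at 2 or more was 6 when scaled by total counts and 8 with upper quartile factors. Among the 1313 genes with a count at least as high as that of Mogat2 in their higher library, 24.6% were at 1 or more and 8.99% at 2 or more. That cut, 10635 counts, is the DSS count of Mogat2. Apoa1, Apoc3, Fabp2, Mogat2, Dgat1 and Dgat2 reached it only in the DSS library, so these genes are not matched to the set by control level. The set was chosen with earlier results known, so these shares describe it and are no test of it. Together the 10 genes took 0.191% of all counts in the control (exact binomial interval from 0.190% to 0.192%) and 1.57% in the DSS library (from 1.56% to 1.57%). In RNA from whole organoids, more cells of a type and more RNA per cell cannot be told apart.

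**Figure D1:**
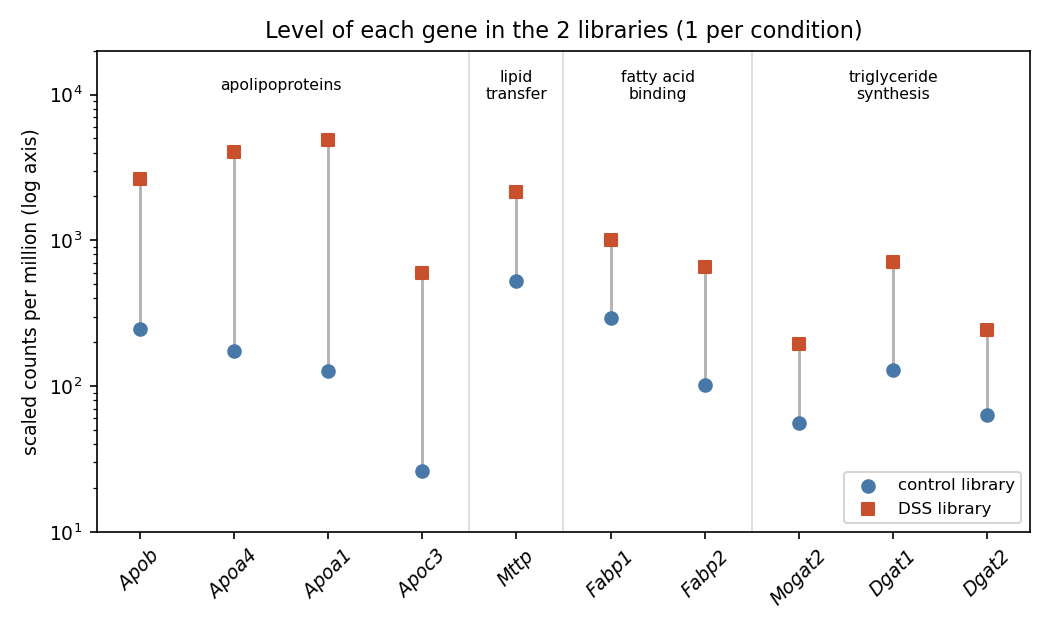
Scaled CPM (log axis) of each gene in the control library (circles) and in the DSS library (squares), 1 library per condition, grouped by role. The square lies above the circle for all 10 genes, and the gap is widest for Apoa1, from 127 to 4885 CPM.

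RefSeq promoter sequences of the build GRCm38.p6 were matched by symbol for 6 of the 10 genes, namely Apob, Apoa4, Apoa1, Mttp, Fabp1 and Fabp2. The 250 bases before the annotated start are shown for the pair with the highest log2 ratios, Apoa1 (chr9:46228380-46228629, plus strand) and Apoa4 (chr9:46240594-46240843, plus strand), and for the fatty acid binding protein pair, whose ratios differed, Fabp1 (chr6:71199629-71199878, plus strand) and Fabp2 (chr3:122894822-122895071, plus strand). They run 5′ to 3′, and capitals mark exact matches, on either strand, to any of 7 short motifs searched.
Apoa1: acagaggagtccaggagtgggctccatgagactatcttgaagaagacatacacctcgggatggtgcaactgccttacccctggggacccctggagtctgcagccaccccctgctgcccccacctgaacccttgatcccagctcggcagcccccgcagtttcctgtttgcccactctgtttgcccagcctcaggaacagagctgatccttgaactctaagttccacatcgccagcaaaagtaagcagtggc
Apoa4: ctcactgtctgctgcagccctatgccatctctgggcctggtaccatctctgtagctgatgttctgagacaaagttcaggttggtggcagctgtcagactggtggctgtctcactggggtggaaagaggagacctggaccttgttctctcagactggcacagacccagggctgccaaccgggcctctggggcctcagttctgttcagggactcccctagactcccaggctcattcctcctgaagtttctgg
Fabp1: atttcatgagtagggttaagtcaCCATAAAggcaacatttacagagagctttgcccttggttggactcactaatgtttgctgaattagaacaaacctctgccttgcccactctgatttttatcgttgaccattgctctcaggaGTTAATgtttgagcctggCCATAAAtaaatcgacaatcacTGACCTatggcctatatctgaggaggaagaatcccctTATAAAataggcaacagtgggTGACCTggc
Fabp2: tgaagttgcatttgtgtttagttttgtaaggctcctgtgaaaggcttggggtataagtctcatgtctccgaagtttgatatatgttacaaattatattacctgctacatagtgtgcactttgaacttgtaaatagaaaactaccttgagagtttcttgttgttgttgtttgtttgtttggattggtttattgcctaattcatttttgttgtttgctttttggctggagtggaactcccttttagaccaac

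The motifs were CAAAGTCCA (HNF4), AGGTCA (nuclear receptors), GTTAAT (HNF1), AGATAA of the GATA family, TTTATGG (CDX), TGACGTGG (CREB3L3 and related factors) and TATAAA, the letters of the TATA box. Among these 6 promoters, Fabp1 held GTTAAT 107 bases before the start, TTTATGG on the reverse strand 227 and 89 bases before it, AGGTCA on the reverse strand 67 and 9 bases before it, and TATAAA 30 bases before it, without overlap. Apob held TATAAA 60 bases before its start, and Apoa1, Apoa4, Fabp2 and Mttp held no exact match to any of the 7. Of 32851 RefSeq promoters of the same length, 14.0% held AGGTCA, 12.4% TATAAA, 9.99% AGATAA, 6.43% GTTAAT, 2.43% TTTATGG, 0.563% TGACGTGG and 0.384% CAAAGTCCA. Among these 6, the promoter with the most matches belonged to Fabp1, with a log2 ratio of 1.78. The genes without a match had log2 ratios from 2.01 (Mttp) to 5.27 (Apoa1). The promoters of Apoc3, Mogat2, Dgat1 and Dgat2 were not searched, and a link between matches and ratio was not tested. Near matches were not searched for, so a promoter without an exact match may still hold a variant of a site. These are matches of letters only, and binding was not measured.

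The 4 apolipoproteins had the 4 highest log2 ratios. Apoa1, the main protein of high density lipoprotein, which is also put on chylomicrons, had 9059 counts without DSS and 267074 with DSS, or 127 and 4885 CPM. Its log2 ratio was 5.27 (interval from 5.24 to 5.30), rank 45 among 17235 genes.

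Apoa4, an apolipoprotein of intestinal lipoproteins that is known to follow fat intake, had 12531 and 222223 counts (175 and 4065 CPM). Its log2 ratio was 4.54 (from 4.51 to 4.56), a 23.2-fold higher level in the DSS library. Apoc3, which inhibits the clearance of triglyceride-rich particles, had 1885 and 32464 counts (26.3 and 594 CPM). At 4.49 (from 4.43 to 4.56), the log2 ratio of Apoc3 lay within counting error of that of Apoa4, and both lay below that of Apoa1.

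Apob encodes the large structural protein on which each chylomicron is built. It had 17615 counts without DSS and 143912 with DSS (246 and 2632 CPM), for a log2 ratio of 3.42 (from 3.40 to 3.44). Apob transcripts were thus 10.7-fold higher, and those of the 3 exchangeable apolipoproteins together were 29.1-fold higher. Within a library the ratio of 2 genes does not depend on the scaling, and its change does not depend on gene length. By this measure, Apoa1 counts per Apob count went from 0.514 in the control to 1.86 in the DSS library, a change of 1.85 on the log2 scale (counting interval from 1.81 to 1.89). For Apoa4 the same ratio went from 0.711 to 1.54 (log2 change 1.12, from 1.08 to 1.15). Within the exchangeable apolipoproteins, Apoc3 counts per Apoa1 count went from 0.208 to 0.122 (log2 change -0.78, from -0.85 to -0.70). Apoa1 counts per Apoa4 count went from 0.723 to 1.20 (log2 change 0.73, from 0.69 to 0.77).

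Mttp encodes the lipid-carrying subunit of the microsomal triglyceride transfer protein, the partner of Apob in particle assembly. It had 37866 counts without DSS and 116653 with DSS (529 and 2134 CPM). Its log2 ratio was 2.01 (from 1.995 to 2.03), just inside the line of 2, and 1.76 with total counts. Mttp counts per Apob count went from 2.15 to 0.811, a log2 change of -1.41 (from -1.44 to -1.38). The ratio of Mttp was thus smaller than that of Apob.

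Fabp1 and Fabp2 encode the liver-type and intestinal-type fatty acid binding proteins, which enterocytes express together. Fabp1 had 20940 counts without DSS and 54955 with DSS (293 and 1005 CPM). Its log2 ratio of 1.78 (from 1.76 to 1.80) was the lowest of the 10 genes, although it was still higher than that of 90.3% of all genes. Fabp2 had 7240 and 35979 counts (101 and 658 CPM) and a log2 ratio of 2.70 (from 2.67 to 2.74). The number of Fabp1 counts per Fabp2 count was 2.89 without DSS and 1.53 with DSS, a log2 change of -0.92 (from -0.96 to -0.88). The span of a lncRNA gene, 4933405D12Rik, contains that of Fabp2 in the RefSeq table, and it had 4 and 10 counts.

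The triglyceride synthesis genes had log2 ratios between 1.80 and 2.44. Mogat2, the intestinal monoacylglycerol acyltransferase that starts the resynthesis of triglyceride, had 3991 and 10635 counts (55.8 and 195 CPM) and a log2 ratio of 1.80 (from 1.75 to 1.86). Dgat1 and Dgat2 encode unrelated enzymes that both make triglyceride from diacylglycerol. Dgat1 had 9281 and 38587 counts (130 and 706 CPM) with a log2 ratio of 2.44 (from 2.41 to 2.48), and Dgat2 had 4529 and 13200 counts (63.3 and 241 CPM) with a log2 ratio of 1.93 (from 1.88 to 1.98). Dgat1 counts per Dgat2 count went from 2.05 to 2.92, a log2 change of 0.51 (from 0.45 to 0.57). Mogat2 counts per Dgat2 count were closer in the libraries, 0.881 and 0.806 (log2 change -0.13, from -0.20 to -0.06). Dgat2 and Mogat2 lay just outside the line of 2, and with upper quartile factors Dgat2 was past it at 2.02.

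**Figure D2:**
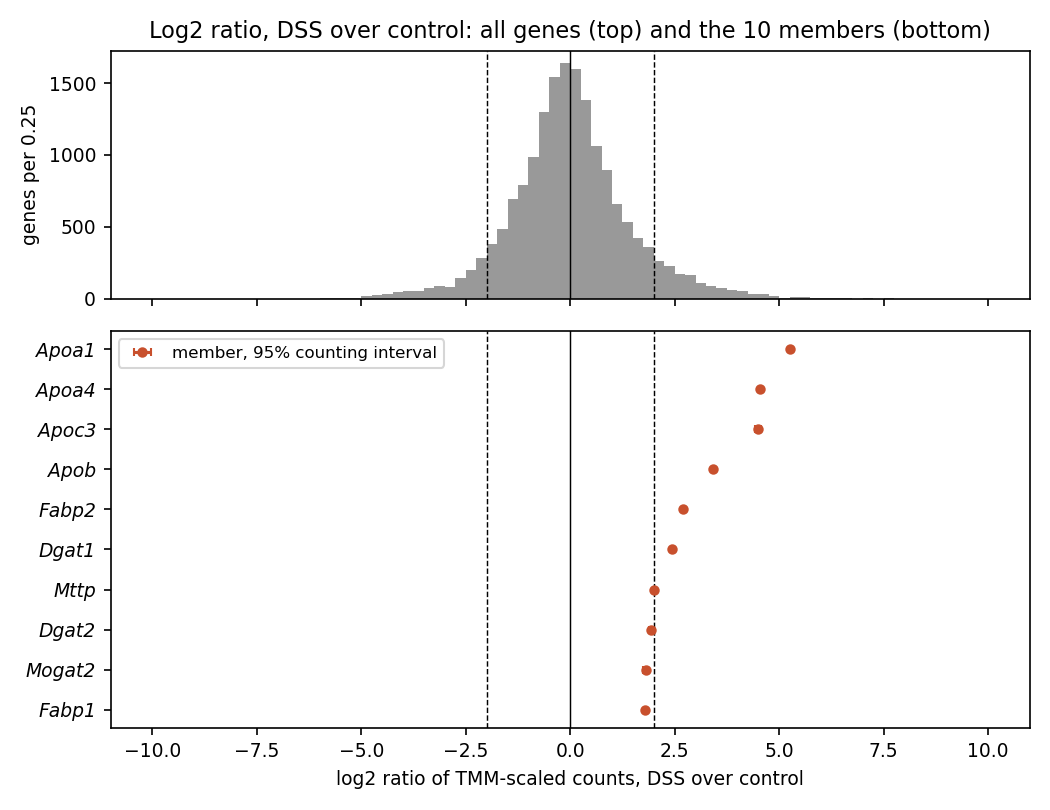
Top, number of genes per 0.25 of the log2 ratio (DSS over control, TMM-scaled counts) among all genes that reached 10 counts in either library. Bottom, the log2 ratio of each of the 10 genes with its 95% counting interval, mostly narrower than the symbol, and dashed lines at 2 and -2. The apolipoproteins lie between 3.42 and 5.27 and the other 6 genes between 1.78 and 2.70.

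The balance among the 10 genes shifted toward apolipoproteins. The 4 apolipoproteins made up 32.9% of the counts of the set in the control (exact binomial interval from 32.6% to 33.1%) and 71.1% in the DSS library (from 71.1% to 71.2%). As a sum they were 21.2-fold higher in the DSS library, and the 6 other genes were 4.22-fold higher. Apoa1 alone went from 7.25% to 28.5% of the counts of the set, and Mttp went from 30.3% to 12.5%.

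Levels per length, in CPM per kilobase of the median protein-coding transcript of GENCODE vM21, allow the genes to be ordered within a library. In the control Fabp1 led with 529, followed by Apoa1 with 155, Mttp with 150, Fabp2 with 105 and Apoa4 with 96.5. Dgat1 with 68.7, Apoc3 with 53.8, Dgat2 with 47.9, Apob with 31.7 and Mogat2 with 31.3 followed. In the DSS library the order began with Apoa1 at 5968, Apoa4 at 2239, Fabp1 at 1818 and Apoc3 at 1213. It went on with Fabp2 at 682, Mttp at 607, Dgat1 at 374, Apob at 339, Dgat2 at 183 and Mogat2 at 109. Apoc3 was thus 7th in the control and 4th in the DSS library, and Mttp was 3rd and 6th. With the longest transcript in place of the median, the level of Apob was 17.7 in the control, the lowest of the 10, and 189 in the DSS library. Some neighbours then changed places, namely Apoa1 (122) and Mttp (134) in the control, and Dgat2 and Mogat2 in the control (28.0 and 31.3) and in the DSS library (107 and 109). The length that the authors counted over is not given in the sources used here.

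Genes of the set that lie side by side in the genome were next examined with their neighbours. In the order of protein-coding genes in the RefSeq table, Apoa1, Apoc3 and Apoa4 follow each other, and they had the 3 highest log2 ratios of the set. The genes on either side were lower in ratio, with Pafah1b2 at -0.44 and Sik3 at 0.44 on one side and Zpr1 at -0.64 on the other, and Apoa5, between Apoa4 and Zpr1, is not in the table. Dgat2 and Mogat2 are also neighbours, with log2 ratios of 1.93 and 1.80. Beside them, Uvrag was at -0.19 and Map6 at 1.48 (from 0.83 to 2.17), the latter on 29 and 62 counts. Wnt11 and Serpinh1, 1 gene further out, had fewer than 10 counts in each library.

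**Figure D3:**
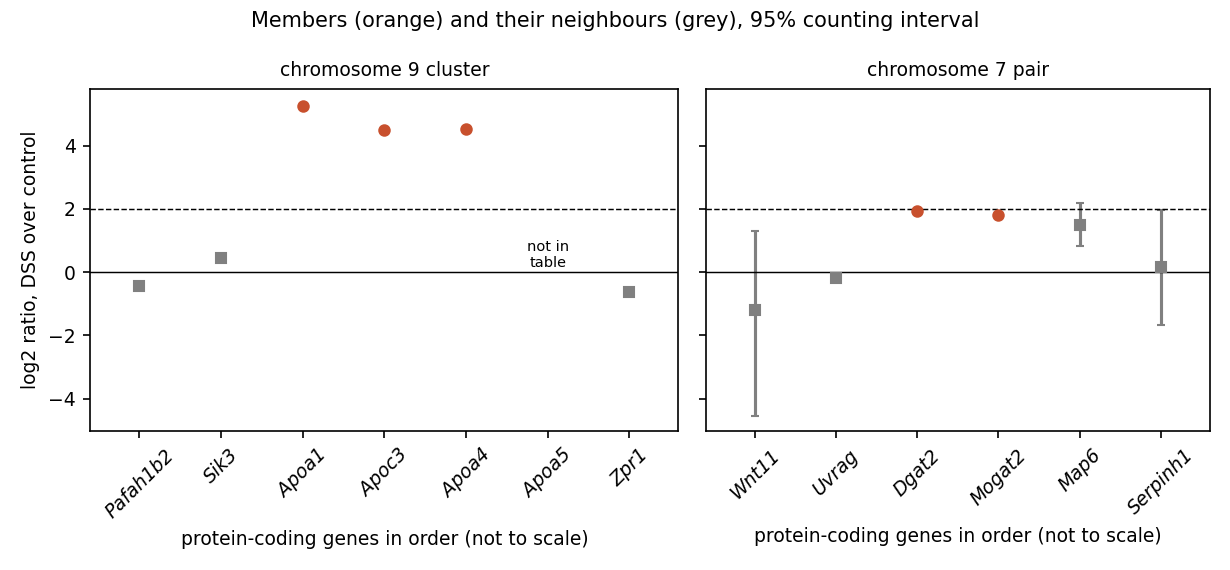
Log2 ratio (DSS over control) of genes in chromosomal order, not to scale, with 95% counting intervals: genes of the set as circles and their neighbours as squares, with a dashed line at 2. Apoa1, Apoc3 and Apoa4 lie at 4.49 or above between neighbours that lie from -0.64 to 0.44. Dgat2 and Mogat2 lie just under the line.

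A wider list of 56 other genes of fat absorption, also chosen with earlier results known, held 51 that were in the table. Mogat1, Vamp7, Apoa5, Apoc1 and Apom are not in it. Of the 51 genes, 40 had a log2 ratio above 0 and 11 below, 24 were at 1 or more, 9 at 2 or more and none at -2 or less. The median was 0.97. These are 78.4%, 47.1% and 17.6% of the list above 0, at 1 or more and at 2 or more, beside 48.0%, 19.3% and 7.87% of all genes. With total counts, 5 of them (9.80%) were at 2 or more, beside 6.31% of all genes, and the median was 0.72. By step, the share above 0 was 66.7% for glycerolipid synthesis and for regulators and 77.8% for uptake and activation. It was 80% for lipid droplets and for other apolipoproteins with RNA editing, 90% for assembly and export and 100% for sterol handling. Each step holds few genes, from 4 to 10.

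Among 9 genes of uptake and activation, 7 were above 0, with a median of 0.74. Cd36, a fatty acid receptor, had 214 and 3876 counts and the highest log2 ratio of the wider list, 4.57 (from 4.37 to 4.77). Npc1l1, the cholesterol importer of the brush border, was at 2.59 with 20707 and 95060 counts, and Slc27a4, a fatty acid transport protein with acyl-CoA synthetase activity, was at 1.87. Acsl3, an acyl-CoA synthetase, was lower in the DSS library at -0.61.

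Glycerolipid synthesis was mixed, with 6 of 9 genes above 0, a median of 0.64 and none at 2 or more. Lpin2, a phosphatidate phosphatase, was at 1.72, its family member Lpin3 at 1.43, and Gpat3, a glycerol phosphate acyltransferase, at 1.58. The other genes of that acyltransferase step, Gpat4 at -0.94 and Gpam at -0.90, were lower in the DSS library. Mogat2, which feeds the alternative monoacylglycerol route, was at 1.80 as given above.

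Of 10 genes of particle assembly and export, 9 were above 0, and Sar1a at -0.0024 turned positive with DESeq2 and upper quartile factors. The median was 1.09. Prap1, a lipid-binding protein of the gut, was at 2.13, Smlr1 at 2.06 and Tm6sf2, which takes part in lipoprotein lipidation, at 1.69. Sar1b, the GTPase needed for chylomicron exit from the endoplasmic reticulum, was at 1.15 (from 1.11 to 1.20), while its paralog Sar1a had 67.8 and 67.7 CPM. P4hb, the other subunit of the transfer protein complex, was at 0.83 (from 0.82 to 0.84), compared with 2.01 for Mttp.

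Of 5 genes of other apolipoproteins and of Apob RNA editing, 4 were above 0. Apoc2, the activator of lipoprotein lipase, had 1689 and 15103 counts and a log2 ratio of 3.55 (from 3.48 to 3.62), between Apob and Apoc3. Apobec1, the enzyme that edits the Apob transcript so that the short protein is made, had 354 and 1849 counts and a log2 ratio of 2.77 (from 2.61 to 2.94). A1cf, a cofactor of this editing, was at 1.50. Editing itself cannot be read from counts per gene. Apoe was at -0.32 with 634 and 389 counts.

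Among lipid droplet genes, 4 of 5 were above 0, with Cidec at 2.02, Cideb at 1.94 and Plin3 at 0.71, and Plin2, a droplet coat protein, at -0.56 was lower in the DSS library. All 4 genes of sterol handling were above 0, and Abca1 at 1.30, Abcg5 at 1.02 and Soat2 at 0.99 were the furthest from 0. Of 9 regulators, 6 were above 0, with a median of 0.43. With total counts 5 were, with a median of 0.17. Creb3l3, a membrane-bound factor known to act on Apoa4 and Apoc2, had 1471 and 18787 counts and a log2 ratio of 4.06 (from 3.99 to 4.14). Hnf4g was at 2.24 with 69.9 and 330 CPM. Its paralog Hnf4a was at 731 CPM without DSS and 756 CPM with DSS, and its log2 ratio of 0.05 was -0.21 with total counts. The bile acid receptor gene Nr1h4 was at 1.11.

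**Figure D4:**
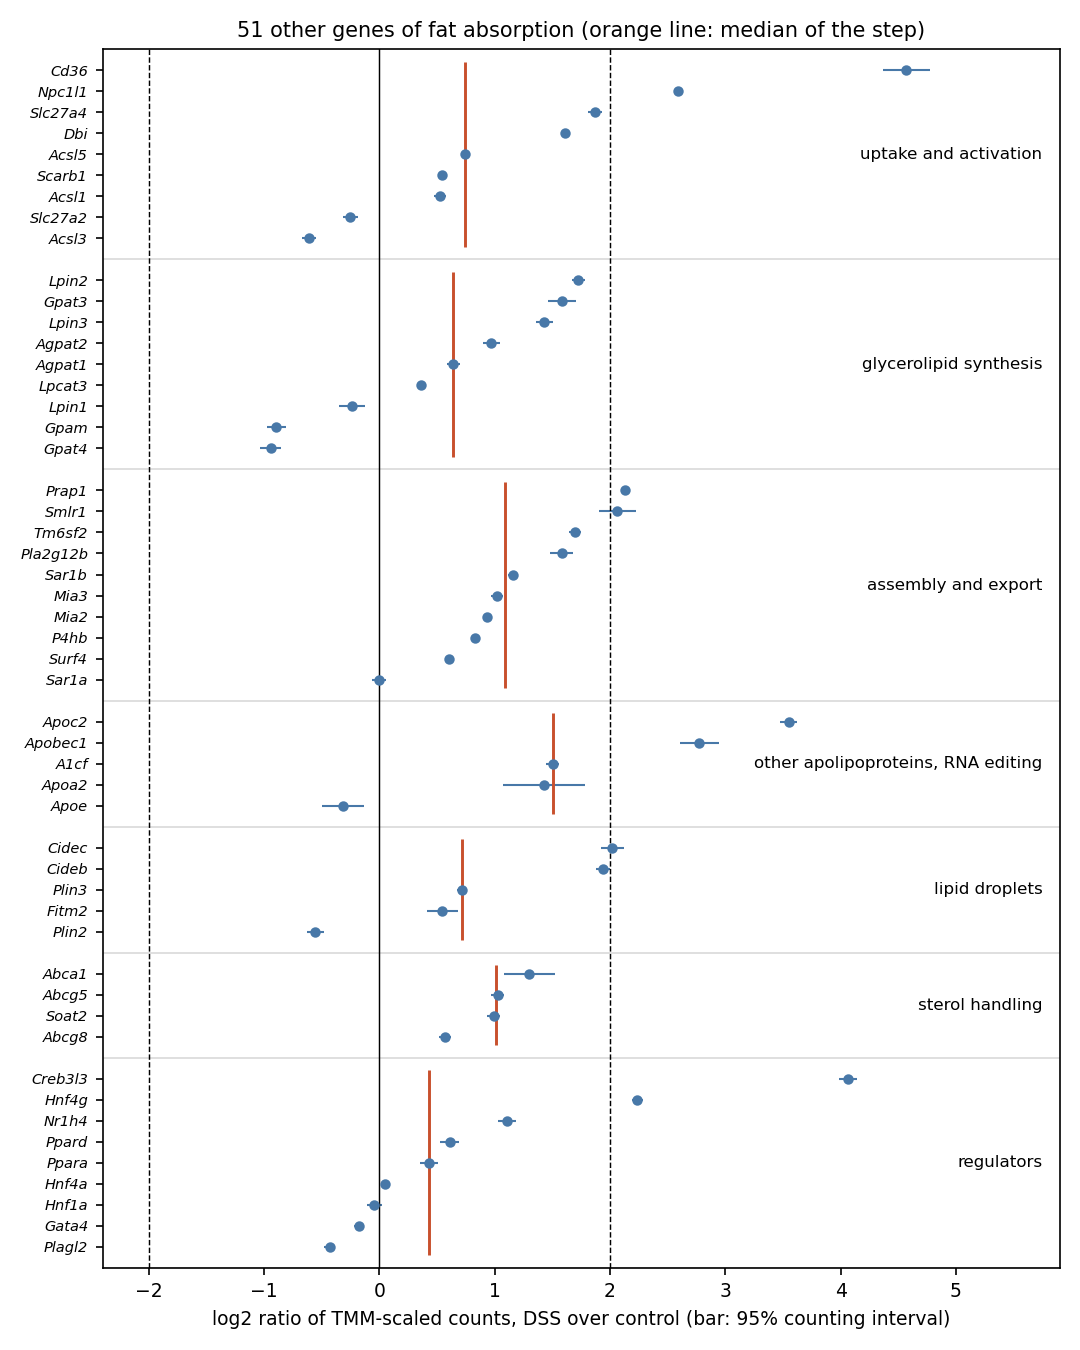
Log2 ratio (DSS over control, TMM-scaled counts) of the 51 other genes of fat absorption with 95% counting intervals, grouped by step, with an orange line at the median of each step and dashed lines at 2 and -2. The medians run from 0.43 for the regulators to 1.50 for other apolipoproteins and RNA editing, and Cd36 and Creb3l3 lie past 4.

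The 3 genes with log2 ratios closest to the median of the set, among 6659 others with at least 1000 counts in both libraries, were Pcsk1, Ephx2 and Npc1l1, at 2.57, 2.58 and 2.59. Likeness here rests on 2 libraries, so it compares 1 ratio per gene.

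Lists of cell type markers, also chosen with earlier results known, differed in direction. All 14 enterocyte markers were above 0, beside 48.0% of all genes, with a median of 2.39. At 2 or more were 10 of the 14 (71.4%), beside 70% of the set and 7.87% of all genes. Their summed level was 3308 CPM without DSS and 17413.5 CPM with DSS. Vil1 is among the 14 at 1.25, and at 0.997 when scaled by total counts. The study's RT-PCR of DSS-treated mIOs found Vil1 to be similar to the control and Lgr5 to be decreased. Lgr5 was at -3.78 here. RT-PCR is another method, and its primer list includes Gapdh, so its values are not on the scale of these counts from 1 library per condition. All 10 stem cell and cycling markers were below 0, from -1.25 to -9.59, with a summed level of 1737 and 187 CPM. Of these 10, 9 were at -2 or less, beside 6.54% of all genes. Of 4 listed markers of the distal small intestine in the table, 3 were at 2 or more (75%, beside 7.87% of all genes). Fabp6 is not in the table. The sum of these 4 was 42.5 and 378 CPM, most of it from Guca2a at 28.4 and 340.1 CPM. Slc10a2 was at 1.09 and 17.0, Fgf15 at 0.713 and 5.52, and Osr2 at 12.3 and 15.1 CPM. The part of cell makeup or region in the values of the 10 genes was not tested. Liver also makes most of these proteins. Of 10 hepatocyte markers, Ahsg, Fgb and Tf are not in the table, and Alb was at 0.866 CPM without DSS and 2.01 CPM with DSS. Of the 7 in the table, Alb included, 5 (71.4%, beside 48.0% of all genes) were above 0 with between 5 and 110 counts in each library. The median log2 ratio of the 7 was 1.20. The sum of these 7 was 1001 and 398 CPM, nearly all from Cps1 at -1.41 and Ttr at -0.75, which intestinal epithelium also expresses. Of 6 adipocyte markers only Cidea and Lipe are in the table, with a sum of 12.6 and 31.3 CPM. Of 6 immune and endothelial markers only Cd68 and Pecam1 are, with a sum of 7.03 and 12.4 CPM. The lowest count in each library is 1, so a gene that is missing may have had counts in only 1 of them.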

How the data were processed

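Poly(A) RNA of 1 control and 1 DSS library was sequenced from stranded libraries. The deposited values are unnormalized read counts by NCBI gene identifier, and the submitters' processing notes name HISAT2 and StringTie without versions. The genome build and counting settings are not given in the sources used here. The 2 per-sample files carry FPKM in their names, yet their counts equal those of the series table for all 19294 genes. The lowest count in the table is 1, so a gene absent from it may have had counts in only 1 library. Of 79716 listed transcript accessions, 74901 are in the RefSeq table of GRCm38.p6, as are all 23 of the 10 genes.

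Counts were scaled over the whole table with TMM factors (1.09 control, 0.915 DSS) in edgeR 4.0.16 under R 4.3.3. The alternatives were total counts, size factors from DESeq2 1.42.0, TMM without the 10 genes, upper quartile factors, thinning the control library to the depth of the other, a prior count of 2 and other count minimums. With 1 library per condition no quasi-likelihood or other test could be fitted. Interval code in Python 3.11.15 with scipy 1.17.1 was tested on simulated data. Changes of within-library ratios have large-count intervals at 95% from the 4 counts. Transcript lengths came from GENCODE vM21.

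The members and gene lists were chosen with earlier results of these data known. The genes named are the 10, the 3 genes per step of the wider list that lay furthest from 0 and reached 50 counts in either library, Hnf4a, Hnf4g, Creb3l3, and the 3 nearest in ratio. Sar1b, Sar1a, P4hb, Acsl3, Gpat4, Gpam, Apoe, Plin2, the neighbouring genes, the ratio of Apoa1 to Apoa4 and the sums of apolipoproteins were chosen after their values were seen. Intervals cover counting error only. Reads without molecular identifiers are not independent molecules, so the intervals may be too narrow even for counting error.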

Additional observations from a re-analysis of the deposited data

How the results depend on the processing

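All 10 genes stayed above a log2 ratio of 0 and of 1 under each alternative run. A scaling moves every log2 ratio alike, by -0.26 with total counts, 0.09 with upper quartile factors, 0.01 with DESeq2 size factors and 7.5e-04 with TMM factors computed without the 10 genes. The median of the set was therefore 2.32 with total counts and 2.66 with upper quartile factors. The median of the wider list was 0.72 and 1.06 under these settings, and 5 in place of 9 of its genes were at 2 or more with total counts. The log2 ratio of Apoa1 ran from 5.01 to 5.36, that of Mttp from 1.76 to 2.10 and that of Fabp1 from 1.52 to 1.87. Over all genes, the share of higher ratios among those past 2 or -2 was 54.6%, and 41.7% with total counts.

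Relative to the sum of enterocyte markers, a measure added after the data were seen, directions depended on the reference. Mttp turned to 0.018 when Sis was left out of the sum. With Vil1 alone as reference, Mttp was at 0.76, Fabp1 at 0.53, Mogat2 at 0.55 and Dgat2 at 0.68, and with Alpi alone, Apob was at -0.52, Fabp2 at -1.23 and Dgat1 at -1.49. With Ada alone, Apoa1 was at -0.034, Apoa4 at -0.77, Apoc3 at -0.81, Apob at -1.89, Fabp2 at -2.60 and Dgat1 at -2.86. No paired analysis was possible because each condition is 1 library, and no replicate could be left out.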

Other observations

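The 10 genes were also set against the sum of 14 enterocyte markers, a comparison chosen after the values were seen, which does not depend on the scaling of the libraries. Per 1000 counts of the markers, Apoa1 had 38.3 counts without DSS and 281 with DSS, a log2 change of 2.87 (counting interval from 2.84 to 2.90). Apoa4 was at 2.14, Apoc3 at 2.10, Apob at 1.02, Fabp2 at 0.31 and Dgat1 at 0.05. The other 4 genes were below 0, with Mttp at -0.38, Dgat2 at -0.46, Mogat2 at -0.59 and Fabp1 at -0.62. Sis held 50761 of the 236741 marker counts without DSS and 386101 of 952058 with DSS. With Sis left out, 3 of the 10 were below 0, namely Dgat2 at -0.06, Mogat2 at -0.19 and Fabp1 at -0.21. Mttp was then at 0.018 (from -6.5e-04 to 0.036). Whether a gene lay above or below 0 depended on the marker. Against a single marker, a gene lies above 0 wherever its own log2 ratio is higher than that of the marker. With the brush border protein gene Vil1, whose own log2 ratio was 1.25, all 10 were above 0. With the alkaline phosphatase gene Alpi, whose own log2 ratio was 3.94, 3 were, namely Apoa1, Apoa4 and Apoc3. With Ada, the marker of the list with the highest log2 ratio at 5.30, none of the 10 was above 0, and Apoa1 was at -0.034 (from -0.15 to 0.085).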
